A study of Mus musculus with 12 samples.

Results

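The acute-phase proteins described here were 10 genes of mouse liver, found by matching Ensembl identifiers of the deposited expression table to the symbols Saa1, Saa2, Saa3, Saa4, Orm1, Orm2, Orm3, Hp, Hpx and Lcn2. All 10 were among the 35275 genes of the table, and all 10 had enough signal to be tested together with 12466 genes. RNA of whole liver from 12 male mice was sequenced, 3 mice in each of 4 groups. Wild-type (WT) mice and Pctp-/- mice, in which phosphatidylcholine transfer protein (PC-TP) was knocked out in the whole body, were fed either a chow diet or a diet depleted of methionine and choline (MCD). The 4 groups were thus WT on chow, Pctp-/- on chow, WT on MCD and Pctp-/- on MCD, and none carried another allele or agent in the labels. The strain, age and time on the diet of these mice are not given in the sources used here. The knockout was of the whole body and not of hepatocytes alone, and PC-TP protein was not measured in these data.

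The acute-phase response is the change in the plasma proteins made by the liver during infection, tissue injury or inflammation. Interleukin-6, interleukin-1 and tumor necrosis factor act on hepatocytes through STAT3, NF-kappaB and C/EBP transcription factors. Proteins whose plasma level rises are called positive acute-phase proteins, and those whose level falls, such as albumin and transthyretin, negative ones. The serum amyloid A proteins travel on high-density lipoprotein, the orosomucoids carry small lipophilic molecules in plasma, haptoglobin (Hp) and hemopexin (Hpx) bind free hemoglobin and heme, and lipocalin-2 (Lcn2) binds iron-loaded bacterial siderophores. Saa3 is made largely outside hepatocytes, including by macrophages and adipocytes, and Lcn2 is also a granule protein of neutrophils. Saa4 is known as the constitutive serum amyloid A, which takes little part in the acute response. Diets that lack methionine and choline are used to produce fatty, inflamed livers in mice.

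The genes lay in 2 clusters and 3 single loci of the GRCm38 assembly, by the GENCODE M21 annotation. The serum amyloid A genes were neighbors on chromosome 7, with Saa3 from 46711998 to 46715700, Saa4 from 46727998 to 46732603 and Saa1 from 46740497 to 46742980 on the minus strand, and Saa2 from 46751790 to 46754313 on the plus strand. The orosomucoid genes followed each other on the plus strand of chromosome 4, with Orm1 from 63344560 to 63348163, Orm3 from 63356162 to 63359511 and Orm2 from 63362449 to 63365878. Hpx lay on chromosome 7 from 105591613 to 105600137, Hp on chromosome 8 from 109575128 to 109579172 and Lcn2 on chromosome 2 from 32384633 to 32388252, each on the minus strand. None of the 10 overlapped another annotated gene.

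Some of these genes are close copies, which matters for their levels. The transcripts of Saa1 and Saa2 were 93.9% identical over their alignment, those of Orm1 and Orm2 91.0%, those of Orm2 and Orm3 88.3% and those of Orm1 and Orm3 86.4%. Saa3 was 64.3% identical to Saa1, and Saa4 26.2%. The Saa4 transcript had 2094 bases against 609 in Saa1. Gaps counted in the alignment length, so the difference in length alone holds the Saa4 value low. How the authors' counting divided reads shared by such copies is not given in the sources used here, so the split between Saa1 and Saa2 and among the orosomucoids is uncertain, and their sums are given as well.

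The 250 bases before the RefSeq transcription start are printed here for 6 of the genes, so that the letters of close copies can be set beside their levels. Saa1 and Saa2 stand beside Saa4, the member that fell, Orm2 stands beside Orm3, and Lcn2 had the largest rise. The windows are from RefSeq on GRCm38.p6, 5′ to 3′ along the gene, and windows were taken for 8 of the 10 members, the exceptions being Orm1 and Hp. RefSeq and GENCODE do not place every start at the same base, so the Lcn2 window lies inside the GENCODE span given above and the end of the Saa2 window runs into that of Saa2. Capitals mark matches on either strand to TTGCNNAA, a short form of the C/EBP binding sequence, and to TATAAA, the TATA box.
Saa1, chr7:46742981-46743230, minus strand: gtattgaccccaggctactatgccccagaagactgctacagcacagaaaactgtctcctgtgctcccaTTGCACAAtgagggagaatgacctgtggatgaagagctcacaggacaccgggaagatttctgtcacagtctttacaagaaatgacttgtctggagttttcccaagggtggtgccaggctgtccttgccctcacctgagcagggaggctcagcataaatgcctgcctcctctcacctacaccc
Saa2, chr7:46751583-46751832, plus strand: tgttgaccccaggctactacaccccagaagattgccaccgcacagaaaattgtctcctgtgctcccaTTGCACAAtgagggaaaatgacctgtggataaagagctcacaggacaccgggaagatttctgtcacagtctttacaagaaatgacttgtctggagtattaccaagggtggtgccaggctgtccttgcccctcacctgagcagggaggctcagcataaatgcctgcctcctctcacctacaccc
Saa4, chr7:46732604-46732853, minus strand: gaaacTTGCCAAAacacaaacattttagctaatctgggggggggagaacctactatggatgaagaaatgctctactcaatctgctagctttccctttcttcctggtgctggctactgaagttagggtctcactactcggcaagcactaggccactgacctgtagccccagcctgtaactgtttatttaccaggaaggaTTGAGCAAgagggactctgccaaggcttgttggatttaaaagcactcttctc
Orm2, chr4:63362199-63362448, plus strand: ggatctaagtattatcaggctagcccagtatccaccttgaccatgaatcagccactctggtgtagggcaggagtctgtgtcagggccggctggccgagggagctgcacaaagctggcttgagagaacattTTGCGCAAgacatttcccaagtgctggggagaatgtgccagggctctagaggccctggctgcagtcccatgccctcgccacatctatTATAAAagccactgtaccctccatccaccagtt
Orm3, chr4:63355908-63356157, plus strand: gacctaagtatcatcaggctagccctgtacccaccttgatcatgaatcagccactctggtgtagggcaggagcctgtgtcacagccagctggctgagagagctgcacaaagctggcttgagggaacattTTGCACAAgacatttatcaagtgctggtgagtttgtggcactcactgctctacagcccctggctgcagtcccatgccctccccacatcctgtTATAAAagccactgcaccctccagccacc
Lcn2, chr2:32387740-32387989, minus strand: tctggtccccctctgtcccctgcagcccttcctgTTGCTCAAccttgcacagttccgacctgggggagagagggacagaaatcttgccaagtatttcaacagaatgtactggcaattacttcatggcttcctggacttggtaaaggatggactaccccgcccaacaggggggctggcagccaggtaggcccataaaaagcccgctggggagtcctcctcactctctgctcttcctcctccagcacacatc

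The Saa1 and Saa2 windows were 94.8% identical and held the same match to TTGCNNAA, TTGCACAA. Its first base lay 182 bases before the start in Saa1 and 183 in Saa2. The Orm2 and Orm3 windows were 85.9% identical, and the match began 120 bases before the start in Orm2 and 121 in Orm3, with TTGCGCAA in the former and TTGCACAA in the latter. Both also held TATAAA close to the start. Saa4 had a pair of matches, at 245 and at 52 bases. A match to TTGCNNAA was present in 8 of 8 member windows, counting Saa3 and Hpx, whose windows are not printed, and in 9.56% of 32851 mouse promoter windows of the same length. TATAAA was in 2 of the 8 and in 12.4% of all windows. No member window held TTCNNNGAA, a short form of the STAT site found in 7.02% of all windows, or the short form of the NF-kappaB site that begins with GGGA and ends with CC after 4 open positions, found in 17.6%. These matches describe the letters of the windows, and the copies of a family are not independent of each other. No 2 of these motifs overlapped in a printed window.

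The deposited values were FPKM, fragment numbers corrected for gene length and for library depth, so levels can be set side by side between genes. The chow libraries held 30486576 to 55179468 uniquely mapped reads, the MCD libraries 33463498 to 46246856. Read quality differed by diet as well, with unique mapping of 77.59 to 79.41% for chow but 85.66 to 87.55% for MCD libraries, and base error rates of 0.03% and 0.01% in every library of the respective diet. Each diet was thus its own set of libraries, and diet and sequencing set cannot be told apart in any comparison of MCD with chow. Pctp itself separated the genotypes. Its FPKM in WT livers was 2.25, 1.21 and 2.65 on chow and 7.90, 5.10 and 3.61 on MCD, and in Pctp-/- livers 0.566, 0.364 and 0.330 on chow and 0.156, 0.329 and 0.293 on MCD. Every WT library was above every Pctp-/- library, although on chow the log2 fold change of -1.07 (standard error 0.23) did not pass the threshold (adjusted p = 0.15 from limma), while on MCD it was -2.33 (standard error 0.23, adjusted p = 0.000624). The tissue was checked by albumin (Alb), the main hepatocyte product, which stood at 26290 to 61590 FPKM over the 12 libraries.

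Hp and Hpx made up most of the acute-phase RNA in every liver. In WT mice on chow they held 77.65 to 81.93% of the summed FPKM of the 10 genes, and in Pctp-/- mice on MCD 84.67 to 87.22%. The summed FPKM of all 10 was 0.757 to 0.871% of a library's total in WT mice on chow and 1.27 to 1.65% in WT mice on MCD, and in Pctp-/- mice 0.823 to 0.958% and 1.35 to 1.53%. By mean FPKM in WT livers on chow the order was Hpx, Hp, Orm1, Saa4, Saa1, Saa2, Saa3, Orm2, Orm3 and Lcn2. Several neighbors in that order were not separated by their libraries, as Hp reached 1626 FPKM where the lowest Hpx value was 1593, and the ranges of Saa3 and Orm2 and of Orm2 and Orm3 overlapped. On MCD the order in WT livers became Hpx, Hp, Orm1, Lcn2, Saa4, Saa1, Orm2, Saa2, Saa3 and Orm3, and from Lcn2 to Saa3 the range of each gene overlapped that of the next. The place of Lcn2 rested on the first WT mouse on MCD: over the other 2 its mean was 70.4 FPKM, below the 80.2 of Saa4.

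**Figure D1:**
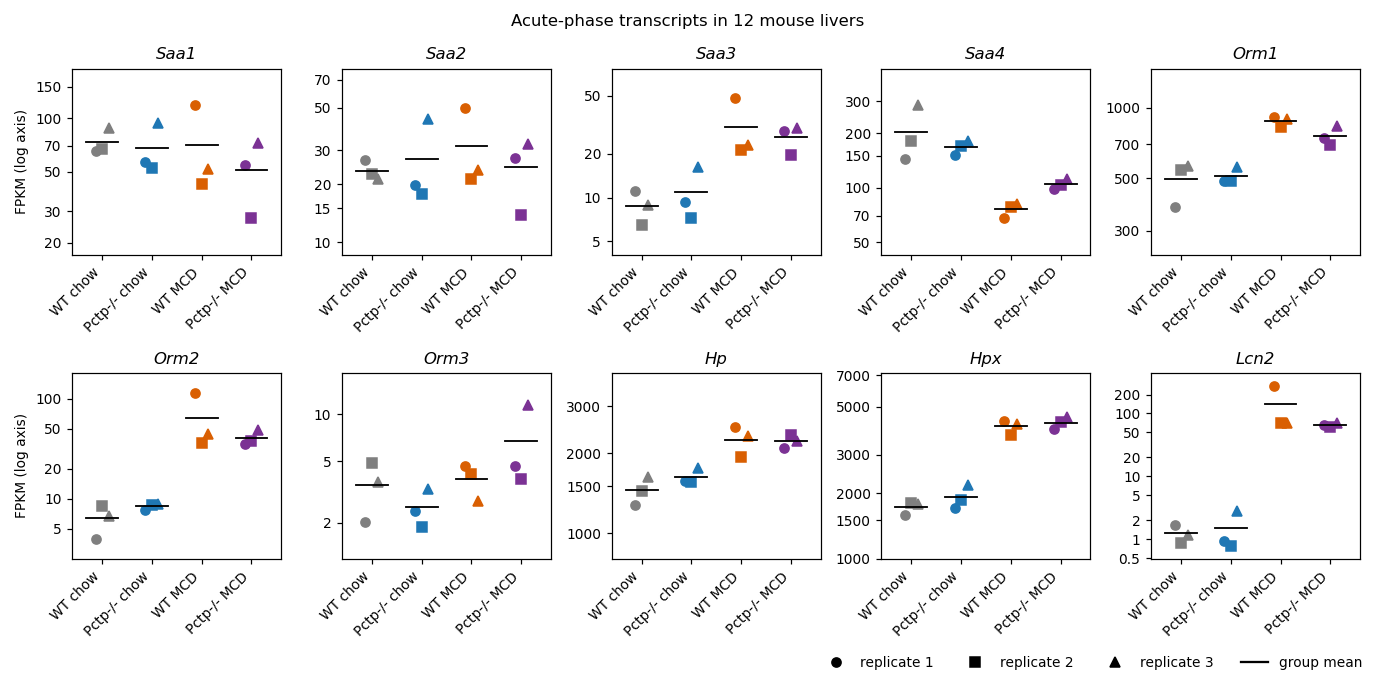
FPKM of the 10 acute-phase genes (log axis, scaled separately for each gene) in each of the 12 livers, by genotype and diet, with points for mice and a line at the group mean. The chow and MCD groups were apart for Lcn2, Orm2, Orm1, Saa3, Saa4, Hp and Hpx in both genotypes, and the first WT mouse on MCD, at 277 FPKM, stood above the other Lcn2 values.

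The MCD diet was compared with chow in each genotype, which asks how the diet that injures the liver changed its transcripts. In WT livers 7 of the 10 genes passed an adjusted p of 0.05 in limma on log2(FPKM + 1), beside 57.0% of all genes tested. Of these, 6 were higher on MCD (Lcn2, Orm2, Saa3, Hpx, Orm1 and Hp), beside 34.5% of all genes, and Saa4 was lower, beside 22.5%. In Pctp-/- livers 8 of 10 passed, beside 50.3% of all genes: the same 6 and Orm3 were higher, beside 26.0%, and Saa4 was lower, beside 24.4%. So large a share of the liver transcriptome differed by diet that calls of 7 or 8 in 10 do not by themselves set these genes apart. The diet groups of a genotype did not overlap for the same 7 and 8 genes, where 63.7% of all genes in WT and 59.7% in Pctp-/- livers did not. The median log2 fold change of the 10 was 0.74 in WT and 0.79 in Pctp-/- livers, where the medians of all genes tested were 0.11 and 0.04. Both comparisons had separate libraries in each group and shared none with each other. In bulk liver, fewer cells of a type and less RNA per cell cannot be told apart.

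**Figure D2:**
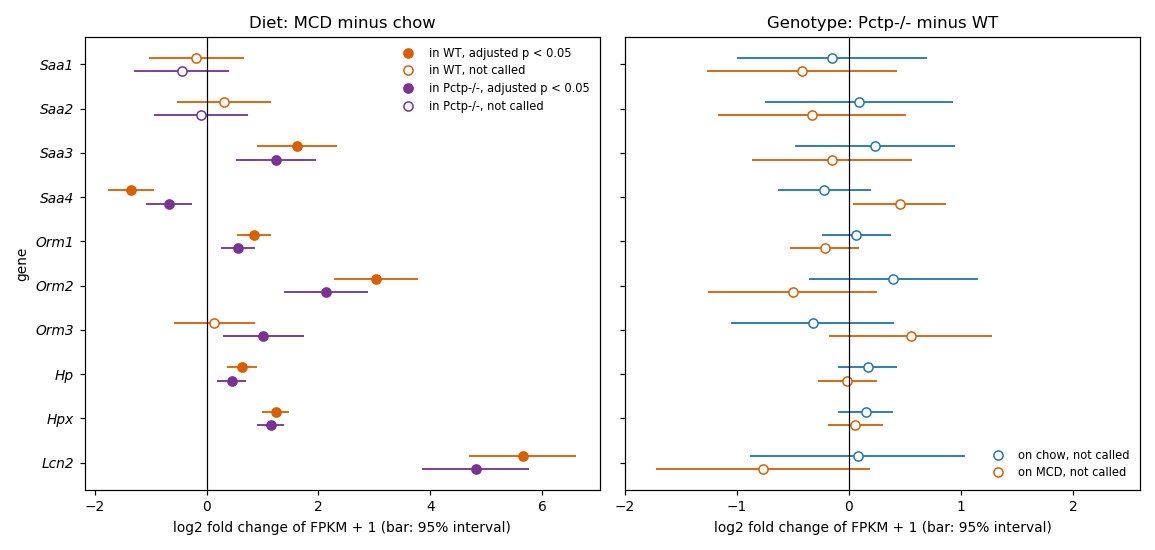
Log2 fold changes of FPKM + 1 with 95% intervals from limma for the 10 genes, by diet in each genotype (left) and by genotype on each diet (right), with filled points where the adjusted p was under 0.05. Diet effects ran from -1.35 for Saa4 to 5.66 for Lcn2 in WT livers, and no genotype effect was called.

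Lcn2, the siderophore-binding lipocalin, changed most. Its FPKM was 1.71, 0.870 and 1.17 in the 3 WT livers on chow and 0.941, 0.777 and 2.77 in the Pctp-/- livers on chow. On MCD it was 277, 70.9 and 69.95 in WT and 64.6, 60.6 and 70.4 in Pctp-/- livers. Every MCD liver was above every chow liver by more than an order of magnitude. The log2 fold change was 5.66 in WT (standard error 0.44, adjusted p = 1.04e-06 from limma), the 8th highest among 12466 genes, and 4.81 in Pctp-/- livers (standard error 0.44, adjusted p = 4.77e-06), the 13th highest. As a ratio of mean FPKM the rise was 111-fold in WT and 43.6-fold in Pctp-/- livers. The WT figure leaned on the first mouse, whose Lcn2 was 3.93 times the mean of the other 2. With that mouse left out, the ratio was 56.2 and the log2 fold change 5.004 (standard error 0.27, adjusted p = 3.32e-07).

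Orm2, one of the orosomucoids, carrier proteins of plasma, was next. In chow livers its FPKM was 3.96, 8.48 and 6.65 in WT and 7.70, 8.66 and 8.74 in Pctp-/- mice. In MCD livers it was 114, 36.1 and 44.8 in WT and 34.9, 37.7 and 48.6 in Pctp-/- mice. All 6 MCD values were above all 6 chow values. The log2 fold change was 3.03 in WT (standard error 0.35, adjusted p = 1.9e-05 from limma) and 2.13 in Pctp-/- livers (standard error 0.35, adjusted p = 0.000327), the 55th and 102nd highest of all genes tested. Without the first WT mouse on MCD, whose Orm2 was 2.83 times the mean of the other 2, the WT value was 2.54 (standard error 0.23, adjusted p = 1.01e-05).

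Orm1, the most abundant orosomucoid, rose less. Its FPKM was 379, 543 and 564 in WT and 486.5, 486.3 and 562 in Pctp-/- livers on chow, against 917, 824 and 894 in WT and 741, 697 and 835 in Pctp-/- livers on MCD. Again the diets did not overlap, and the log2 fold changes were 0.85 in WT (standard error 0.14, adjusted p = 0.00032 from limma) and 0.57 in Pctp-/- livers (standard error 0.14, adjusted p = 0.00556). Orm2 accordingly took a larger part of the orosomucoid signal on MCD: 1.03 to 1.53% of the FPKM of the 3 genes in WT livers on chow and 4.18 to 11.04% on MCD, and 1.52 to 1.74% against 4.48 to 5.43% in Pctp-/- livers.

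Orm3 was scarce and uneven. Its FPKM was 2.01, 4.83 and 3.67 in WT and 2.38, 1.87 and 3.31 in Pctp-/- livers on chow, and 4.62, 4.13 and 2.79 in WT and 4.68, 3.83 and 11.57 in Pctp-/- livers on MCD. The WT groups overlapped, with a log2 fold change of 0.14 (95% interval -0.59 to 0.86). In Pctp-/- livers the groups did not overlap and the change of 1.01 passed (standard error 0.33, adjusted p = 0.0237 from limma). That call did not hold without the third Pctp-/- mouse on MCD, the liver with 11.57 FPKM (0.59, adjusted p = 0.0986), nor without the second or the first Pctp-/- mouse on chow (adjusted p = 0.0819 and 0.0503). The sum of the orosomucoids does not depend on how shared reads were divided among them, unless such reads were dropped or counted repeatedly. Whether they were is not given in the sources used here. Reads mapping to several places were 4.07 to 4.84% in chow and 6.5 to 7.4% in MCD libraries. The sum ran from 385 to 575 FPKM in WT livers on chow and from 864 to 1036 on MCD. Its log2 fold changes were 0.92 in WT (adjusted p = 0.00023 from limma) and 0.62 in Pctp-/- livers (adjusted p = 0.00409).

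The scavengers of hemoglobin and heme rose together but not equally. Hpx, which binds heme, was at 1593, 1801 and 1776 FPKM in WT and 1712, 1864 and 2173 in Pctp-/- livers on chow, and at 4310, 3687 and 4182 in WT and 3949, 4232 and 4478 in Pctp-/- livers on MCD. It more than doubled, with log2 fold changes of 1.23 in WT (standard error 0.11, adjusted p = 3.58e-06 from limma) and 1.14 in Pctp-/- livers (standard error 0.11, adjusted p = 8.58e-06), and its replicates were close, the highest of a group being 1.13 to 1.27 times the lowest. Hp, which binds hemoglobin, was at 1281, 1441 and 1626 FPKM in WT and 1570, 1554 and 1751 in Pctp-/- livers on chow. On MCD it was at 2501, 1935 and 2310 in WT and 2083, 2341 and 2218 in Pctp-/- livers, all above the chow livers. The log2 fold changes were 0.63 in WT (standard error 0.12, adjusted p = 0.000824) and 0.45 in Pctp-/- livers (standard error 0.12, adjusted p = 0.00869). The ratio of Hpx to Hp FPKM was 1.09 to 1.25 over the 6 chow livers and 1.72 to 2.02 over the 6 MCD livers.

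The serum amyloid A family split by member. Saa3, the form made largely outside hepatocytes, was at 11.1, 6.47 and 8.86 FPKM in WT and 9.27, 7.18 and 16.15 in Pctp-/- livers on chow, and at 48.0, 21.1 and 23.0 in WT and 28.9, 19.4 and 30.1 in Pctp-/- livers on MCD. Every MCD liver was above every chow liver. The log2 fold change was 1.62 in WT (standard error 0.33, adjusted p = 0.00121 from limma) and 1.24 in Pctp-/- livers (standard error 0.33, adjusted p = 0.00757), and 1.26 (adjusted p = 0.00444) in WT without the first mouse on MCD.

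Saa4, the constitutive form, went the other way. Its FPKM was 144, 181 and 285 in WT and 152, 171 and 181 in Pctp-/- livers on chow, against 68.2, 78.6 and 81.75 in WT and 98.8, 104 and 112 in Pctp-/- livers on MCD. The log2 fold change was -1.35 in WT (standard error 0.19, adjusted p = 9.15e-05 from limma) and -0.67 in Pctp-/- livers (standard error 0.19, adjusted p = 0.011). Saa4 went from 203 ± 73.0 FPKM (SD, n = 3) to 76.2 ± 7.07 (SD, n = 3) in WT mice, and from 168 ± 15.0 to 105 ± 6.48 (SD, n = 3 each) in Pctp-/- mice.

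Saa1 and Saa2, the major acute-phase forms of plasma, were not called in either genotype. Saa1 was at 65.5, 67.2 and 88.4 FPKM in WT and 56.7, 52.7 and 94.1 in Pctp-/- livers on chow, and at 119, 42.9 and 51.8 in WT and 54.4, 27.4 and 72.5 in Pctp-/- livers on MCD. Saa2 was at 26.6, 22.5 and 21.3 FPKM in WT and 19.8, 17.75 and 43.9 in Pctp-/- livers on chow, and at 49.9, 21.3 and 23.7 in WT and 27.4, 13.8 and 32.4 in Pctp-/- livers on MCD. The diets overlapped for both genes in both genotypes, and the MCD livers held the highest as well as the lowest value of each. For Saa1 the log2 diet effect was -0.18 in WT livers (95% interval -1.03 to 0.67) and -0.45 in Pctp-/- livers (95% interval -1.30 to 0.40), and for Saa2 0.32 (95% interval -0.52 to 1.15) and -0.11 (95% interval -0.95 to 0.73). In WT livers the intervals reached past a halving of Saa1 and a doubling of Saa2, so changes of that size were not excluded. Their sum gave -0.05 in WT (95% interval -0.89 to 0.79) and -0.35 in Pctp-/- livers (95% interval -1.19 to 0.49). The ratio of Saa3 to Saa1 FPKM was 0.0963 to 0.172 over the chow livers and 0.405 to 0.709 over the MCD livers, without overlap.

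The first WT mouse on MCD stood out for the acute-phase genes. It had the highest FPKM of its group for 9 of the 10 members, the exception being Saa4, where the same was true of 48.0% of all genes tested. For 5 members it was more than 1.5 times both other mice, against 7.16% of all genes. Relative to the mean of the other 2 it was 2.51-fold for Saa1, 2.22-fold for Saa2, 2.18-fold for Saa3, 2.83-fold for Orm2 and 3.93-fold for Lcn2, but 1.07-fold for Orm1, 1.18-fold for Hp and 1.10-fold for Hpx. The third Pctp-/- mouse on chow had the highest value of its group for 10 of 10 members, beside 41.1% of all genes, and more than 1.5 times both others for 4, beside 3.67%. Its Saa1 of 94.1, Saa2 of 43.9, Saa3 of 16.15 and Lcn2 of 2.77 FPKM were the largest on chow. In both of these groups Saa1, Saa2, Saa3 and Lcn2 were above the group mean in that mouse and below it in the other 2. The third Pctp-/- mouse on MCD was also highest of its group for 9 of 10 members, beside 39.9% of all genes. It was more than 1.5 times both others for 1 member, beside 1.93% of all genes. Over the 4 groups the highest mouse was 1.12 to 1.29 times the lowest for Hp, 1.13 to 1.27 for Hpx and 1.11 to 1.49 for Orm1, against 1.35 to 2.77 for Saa1, 1.25 to 2.47 for Saa2, 1.55 to 2.28 for Saa3 and 1.16 to 3.96 for Lcn2. Without the first WT mouse on MCD the calls were unchanged, with 7 of 10 members in WT and 8 of 10 in Pctp-/- livers.

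**Figure D3:**
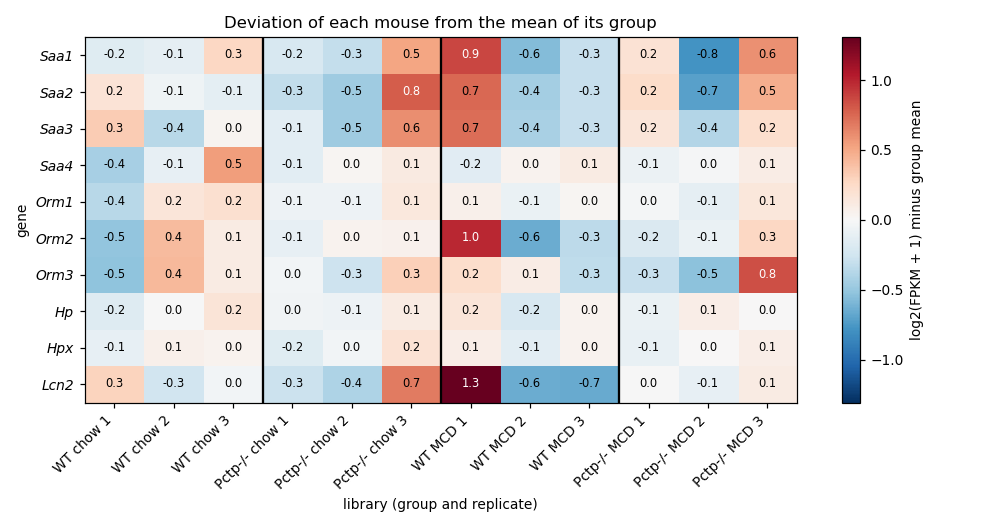
Log2(FPKM + 1) of each gene (rows) in each liver (columns) minus the mean of its group, with red for above and blue for below the group mean. The largest deviations were those of the first WT mouse on MCD, 1.31 for Lcn2, 0.99 for Orm2 and 0.88 for Saa1, and the third Pctp-/- mouse on chow was above its group for all 10 genes.

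Markers of some other cell types also differed by diet. The summed FPKM of 13 macrophage and Kupffer cell markers was 76.2 to 128 in WT and 67.2 to 179 in Pctp-/- livers on chow, and 308 to 627 in WT and 335 to 424 in Pctp-/- livers on MCD. Of the 12 that were tested, 11 rose in WT and 7 in Pctp-/- livers, beside 34.5% and 26.0% of all genes, and none fell. Gpnmb, a marker of lipid-laden macrophages, changed by 4.67 and 5.45 on the log2 scale, and Lyz2, lysozyme of myeloid cells, by 3.26 and 3.04. The first WT mouse on MCD, with 627, had the highest macrophage sum of the 12 livers as well as the highest Lcn2 and Saa3. Lyz2 alone gave 337 FPKM of that sum. Within its group that mouse was highest for Adgre1, Cd68, Lyz2, Csf1r, Itgam, Ccr2, Trem2 and Gpnmb. It was lowest for Clec4f (49.6 FPKM), Marco (8.97) and Timd4 (3.26), and between the other mice for Vsig4 and Cd5l. In WT livers on chow the first mouse also had the highest macrophage sum, Saa3 and Lcn2. The Pctp-/- groups differed from this, as Saa3 and Lcn2 were highest in the third mouse on either diet. Its macrophage sum on chow was 139, below the 179 of the first mouse, and on MCD the third mouse had the lowest sum of its group, 335. The sum of 13 neutrophil markers was 0.778 to 1.89 in WT and 0.587 to 4.38 in Pctp-/- livers on chow, and 19.45 to 24.9 in WT and 6.50 to 15.2 in Pctp-/- livers on MCD. On MCD most of it was S100a8 and S100a9, alarmin subunits also made by monocytes. Ly6g and Mpo were at 0 in all WT livers on either diet, Mmp8 in all WT livers on chow, Ly6g and Elane in all Pctp-/- livers on chow and Ngp and Camp in all Pctp-/- livers on MCD. Of the 13, 3 were abundant enough to test, all higher on MCD in WT and 2 of them in Pctp-/- livers. For 6 adipocyte markers the sum was 3.48 to 4.40 FPKM in WT livers on chow and 19.0 to 62.5 on MCD, nearly all of it Cidec, a lipid droplet protein, and Lep was at 0 in every group. Stellate cell and fibroblast markers rose in 5 of 9 cases in WT and 4 of 9 in Pctp-/- livers and fell in none, the first number being 3 without the first WT mouse on MCD or without the second WT mouse on chow. Lum and Dcn, matrix proteoglycans, changed by 2.63 and 2.07 in WT livers. Endothelial markers, Lyve1 and Clec4g among them, rose in 2 of 6 cases in WT livers, near the 34.5% of all genes. In Pctp-/- livers they rose in none, beside 26.0% of all genes. Of 5 cholangiocyte markers Spp1 alone passed in WT livers and rose. In Pctp-/- livers 2 of these 5 were lower and none higher, beside 24.4% of all genes lower. The part of these cells in the levels of Saa3, Lcn2 and the other members was not tested.

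Calls in the lists that follow stand beside those of all genes tested, of which 34.5% were higher and 22.5% lower on MCD in WT livers and 26.0% higher and 24.4% lower in Pctp-/- livers. Of 25 other positive acute-phase proteins tested, 8 were higher and 10 lower on MCD in WT livers, and 6 higher and 6 lower in Pctp-/- livers, so that the higher calls in WT and the calls each way in Pctp-/- livers were near those shares. Their median log2 fold change was -0.20 in WT and 0.14 in Pctp-/- livers. Apcs, serum amyloid P component, the main pentraxin of the mouse acute phase, went from 62.5 to 87.7 FPKM in WT livers on chow to 2087 to 4006 on MCD, a log2 fold change of 5.37 (standard error 0.21, adjusted p = 7.07e-09 from limma), and changed by 5.70 in Pctp-/- livers. Vnn1, a pantetheinase, rose by 3.25 and 3.51. Among those lower on MCD, Serpina3k, a serine protease inhibitor that shares its strand and part of its locus with Serpina3m, changed by -2.15 in WT and -1.53 in Pctp-/- livers, and Serpina1a, an alpha-1-antitrypsin, by -1.36 and -0.83. Serpina1a and Serpina3k belong to families of near-identical genes, and their reads may be shared.

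Of 16 negative acute-phase proteins tested, 4 were higher and 4 lower in WT livers and 8 higher and 4 lower in Pctp-/- livers, with medians of 0.15 and 0.30. Lower calls were near the shares of all genes, 22.5% in WT and 24.4% in Pctp-/- livers. Apoa4, an apolipoprotein of triglyceride-rich particles, rose by 5.32 in WT and 3.99 in Pctp-/- livers (log2), and Ahsg, fetuin-A, by 0.75 and 0.86. Igfals, which stabilizes insulin-like growth factors in plasma, changed by -1.61 and -0.91, and Fetub, fetuin-B, by -0.99 and -0.81. Alb was higher by 0.66 in WT and 1.02 in Pctp-/- livers, a call that was lost under quantile scaling, where as the most abundant gene its value is fixed.

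**Figure D4:**
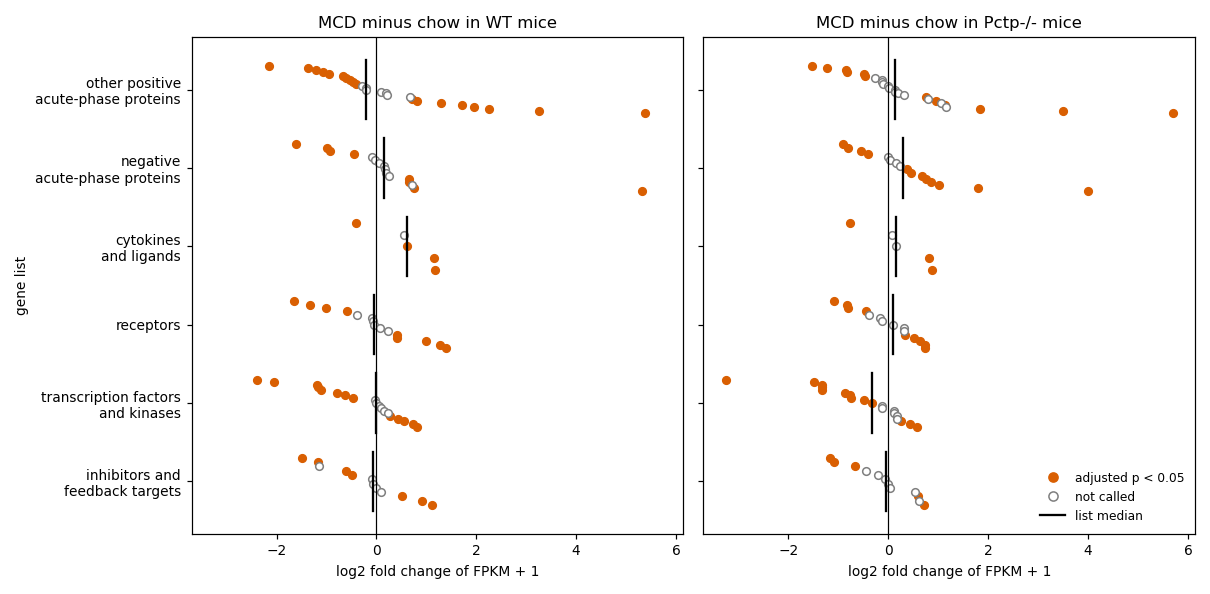
Log2 fold changes of FPKM + 1 on MCD against chow for single genes (points) of 6 lists of the acute-phase program in WT (left) and Pctp-/- livers (right), with filled points where the adjusted p was under 0.05 and a black line at each list median. Apcs at 5.37 and Apoa4 at 5.32 lay far to the right in WT livers, and Cebpb at -2.40 and Cebpa at -2.04 to the left.

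The cytokines that start the response were mostly below the level tested. Of 13, 5 had a mean of at least 0.5 FPKM, and Il6 was not among them. In WT livers 3 rose and 1 fell. Hgf, hepatocyte growth factor, changed by 1.18 in WT and 0.87 in Pctp-/- livers and Il1a, interleukin-1 alpha, by 1.15 and 0.82, both rises, whereas Ctf1, cardiotrophin-1, which shares its locus with Ctf2 on the other strand, fell by 0.40 and by 0.77. Without the first WT mouse on MCD or the third WT mouse on chow, 2 of these 4 WT calls were left. Of 15 receptors, 5 rose and 4 fell in each genotype, near the shares of all genes (34.5% higher and 22.5% lower in WT, 26.0% and 24.4% in Pctp-/- livers), and in Pctp-/- livers 5 of those 9 calls were left without the third mouse on MCD or without the second mouse on chow. Il22ra1, the interleukin-22 receptor of epithelial cells, changed by 1.39 in WT and 0.74 in Pctp-/- livers, and Tlr2, a receptor for bacterial lipoproteins, by 1.26 and 0.73. Lifr, the receptor for leukemia inhibitory factor, changed by -1.64 and -0.84, and Il6ra, the receptor for interleukin-6, by -1.32 in WT (adjusted p = 0.000174 from limma) and -0.80 in Pctp-/- livers (adjusted p = 0.00601).

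Cebpa and Cebpb, which encode factors that bind the sequence marked in the promoter windows, fell. Cebpb was at 149, 125 and 165 FPKM in WT and 127, 334 and 354 in Pctp-/- livers on chow, and at 28.8, 24.65 and 26.7 in WT and 18.2, 41.2 and 20.65 in Pctp-/- livers on MCD. Its log2 fold change was -2.40 in WT (standard error 0.35, adjusted p = 0.00013 from limma) and -3.25 in Pctp-/- livers (standard error 0.35, adjusted p = 1.72e-05). Cebpa, which helps to keep hepatocyte identity, changed by -2.04 in WT (adjusted p = 3.66e-06) and -1.48 in Pctp-/- livers (adjusted p = 5.54e-05). Cebpd, of the same family, is outside the rule for named genes and was added after its values were seen, with -0.78 in WT (adjusted p = 0.00785) and -1.32 in Pctp-/- livers (adjusted p = 0.000313). All 3 share their locus with a gene of the other strand, and whether counting used the strand is not given in the sources used here. Of 19 transcription factors and kinases of the pathway, 5 rose and 8 fell in WT and 3 rose and 10 fell in Pctp-/- livers, beside 34.5% higher and 22.5% lower among all genes in WT and 26.0% and 24.4% in Pctp-/- livers. Relb, an NF-kappaB subunit, rose by 0.80 in WT livers, with 0.11 (adjusted p = 0.546) in Pctp-/- livers, and Jak1, the kinase of the interleukin-6 receptor complex, rose by 0.73 and 0.57.

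Of 12 inhibitors and feedback targets, 3 rose and 4 fell in WT and 2 rose and 3 fell in Pctp-/- livers, beside 34.5% higher and 22.5% lower among all genes in WT and 26.0% and 24.4% in Pctp-/- livers. Without the first Pctp-/- mouse on MCD 3 of its 5 calls were left. Socs3, the inhibitor that STAT3 itself induces, was at 14.7, 12.1 and 6.89 FPKM in WT livers on chow and 3.23, 3.89 and 2.59 on MCD, a change of -1.48 (standard error 0.22, adjusted p = 0.000145 from limma), with -0.44 in Pctp-/- livers (adjusted p = 0.116). Pctp-/- livers held 3.68, 4.27 and 5.28 FPKM of Socs3 on chow and 3.48, 2.97 and 2.47 on MCD. On chow they lay below every WT liver, with a log2 fold change of -1.13 that was not called (adjusted p = 0.102 from limma). Zfp36, which destabilizes cytokine mRNA, changed by -1.17 and -1.09. Tnfaip3, an inhibitor of NF-kappaB, changed by 1.11 in WT and 0.61 in Pctp-/- livers, the latter not called, and Sigirr, an inhibitory receptor of the interleukin-1 family, by 0.92 and 0.71. Among binding partners and receptors of the acute-phase proteins, 3 rose and 5 fell of 11 in WT and 1 rose and 4 fell in Pctp-/- livers. Hmox1, heme oxygenase, which breaks down the heme that Hpx delivers, rose by 1.83 in WT and 1.15 in Pctp-/- livers, and Lrp1, the receptor that takes up heme bound to Hpx, changed by -1.89 and -1.61. Fpr2, a receptor for serum amyloid A that overlaps Fpr3 on its strand, rose by 0.79 in WT, with 0.22 (not called) in Pctp-/- livers. Slc22a17, a proposed receptor for Lcn2, changed by -0.58 and -0.45, the first value passing and the second not. The WT count of 8 was 5 without the first or second WT mouse on MCD or the first on chow, and 4 without the second on chow.

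The knockout was compared with WT on each diet, which asks whether loss of PC-TP changed these transcripts. On chow 0 of 10 members passed in limma, beside 0.136% of all genes. An unadjusted p under 0.05 was seen for 0 members, beside 870 of the 12466 genes tested. The log2 fold changes ran from -0.32 for Orm3 to 0.40 for Orm2, and for each of the 10 genes the Pctp-/- and WT livers overlapped, where 10.6% of all genes did not. The most precise estimates were those of Hpx, 0.15 (95% interval -0.10 to 0.40), Hp, 0.17 (95% interval -0.09 to 0.43), and Orm1, 0.06 (95% interval -0.24 to 0.37), so that changes of these abundant genes beyond those bounds were outside the 95% interval. For Lcn2, with 0.08 (95% interval -0.88 to 1.04), and Saa1, with -0.15 (95% interval -1.003 to 0.70), a doubling of the former and a halving of the latter lay within the interval.

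On MCD 0 of 10 members passed, beside 0.818% of all genes. Beside 2026 of the 12466 genes tested, 1 member had an unadjusted p under 0.05. That gene was Saa4, at 98.8 to 112 FPKM in Pctp-/- and 68.2 to 81.75 in WT livers, which did not overlap, as was the case for 26.6% of all genes. Its log2 fold change was 0.46 (95% interval 0.04 to 0.87, adjusted p = 0.266 from limma). The mean of Lcn2 in Pctp-/- livers was 65.2 ± 4.95 FPKM (SD, n = 3) and in WT livers 139 ± 119 (SD, n = 3), a log2 fold change of -0.77 (95% interval -1.72 to 0.19), but without the first WT mouse on MCD it was -0.11 (adjusted p = 0.926). Orm2 likewise went from -0.50 (95% interval -1.26 to 0.25) to -0.01, Saa1 from -0.42 to 0.02 and Saa2 from -0.33 to 0.04 without that mouse. The size of these differences rested on that liver. Hpx, with 0.06 (95% interval -0.19 to 0.30), and Hp, with -0.02 (95% interval -0.28 to 0.25), were estimated closely. Both diet comparisons and both genotype comparisons draw on the same 4 groups, so their estimates for a gene are not independent.

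The difference of the diet effects, Pctp-/- minus WT, was tested as an interaction. Of the 10 members 0 passed, beside 0.0963% of all genes. Only 1, Saa4, had an unadjusted p under 0.05, beside 1884 of the 12466 genes tested. The fall of Saa4 was smaller in Pctp-/- livers by 0.68 on the log2 scale (95% interval 0.09 to 1.26, adjusted p = 0.262 from limma). For Lcn2 the difference was -0.84 (95% interval -2.20 to 0.51), for Orm2 -0.90 (95% interval -1.96 to 0.17) and for Orm3 0.88 (95% interval -0.15 to 1.91). The call of Orm3 in Pctp-/- livers alone was therefore not shown to be particular to that genotype. Without the first WT mouse on MCD the differences of Lcn2 and Orm2 were -0.19 and -0.40. None of the genes of the pathway and cell type lists passed in either genotype comparison or in the interaction.

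The genes nearest to each member in their course over the 12 livers were found by the root mean square difference of log2(FPKM + 1), each gene centered on its own mean, for the 9 members whose values spanned more than 1 on the log2 scale. For Lcn2 they were Apoa4, Cd36, a fatty acid translocase, and Mmp12, a macrophage elastase, at differences of 0.51, 0.53 and 0.55, where Lcn2 itself spanned 7.29. For Orm2 they were Tuba8, Uap1l1 and Afp, alpha-fetoprotein, at 0.35, 0.36 and 0.36. Afp was at 0.803 to 1.01 FPKM in WT livers on chow and 6.52 to 19.9 on MCD. For Saa3 they were Plek, a leukocyte signaling protein, Gbp9, an interferon-induced GTPase, and Ly6e, at 0.22, 0.24 and 0.24. Saa4 was matched by Rida, Ftcd, an enzyme of histidine breakdown, and Asl, a urea cycle enzyme, at 0.16, 0.18 and 0.19. For Saa1 they were Rcan1, a calcineurin regulator, Tcirg1 and Fgd2, at 0.28, 0.34 and 0.37, and for Saa2 Gm26881, Ttc5 and Dmpk, at 0.26, 0.32 and 0.32. Neither Saa1 nor Saa2 was among the other's nearest genes because members were left out of the search. Orm1 was nearest to Ubl5, Siah1a and 1700021F05Rik (0.08, 0.08 and 0.09), Orm3 to Gm15742, Acot4 and Gm15956 (0.30, 0.32 and 0.32), and Hpx to Akr1c20, Dennd2d and Ifi208 (0.10, 0.11 and 0.12). The small differences of Orm1 and Hpx go with their small ranges of 1.27 and 1.49.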

How the data were processed

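Whole liver RNA of 12 mice was analyzed, and each library was placed in its group by the genotype and diet of the labels. The authors deposited FPKM values per gene, which they did not scale to a common total, and a table of read counts and mapping percentages per library, which was used for depth and not for tests. The submitters' processing notes name the mm10 build, and the aligner and counting tool are not given in the sources used here. Because FPKM are not counts, the Wald test of the study was not run. The deposited FPKM were taken as log2(FPKM + 1), a scale that understates the change of low genes, and genes with a mean of at least 0.5 FPKM were fitted with limma 3.58.1 in R 4.3.3, with 1 mean per group and a trend of the variance with the mean, and p-values were adjusted over all 12466 genes by Benjamini and Hochberg (threshold 0.05, no minimum fold change). No pair of libraries was identical. Each library is a separate mouse by the labels.

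Symbols and positions came from GENCODE M21, which held 34490 of 35275 identifiers, and promoter windows from RefSeq. Named genes were the members, the 2 largest rises and falls of each list among calls in WT livers on MCD, and the 3 nearest genes of each member. The members, lists and motifs were chosen with earlier results of these data known. The fitting script was checked on simulated data. Alternatives were the pseudocount (0.1), the filter (mean of at least 5 FPKM, or none), quantile and median-of-ratios scaling, only the compared libraries, a replicate block, limma without a trend or with robust variances, summed family copies and leaving out each library. Depth per gene is not recoverable from FPKM here, so no counting intervals are given. Sequences were aligned with Biopython 1.88 and figures drawn with matplotlib 3.10.9.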

Additional observations from a re-analysis of the deposited data

How the results depend on the processing

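The 7 members called on MCD against chow in WT livers were 7 and the 8 in Pctp-/- livers 7 or 8 under every alternative that kept the copies apart; with family copies summed, 6 of 7 units were called in each genotype, and 0 were called by genotype or in the interaction under any. Median-of-ratios scaling lowered the median diet effect of all genes in WT livers from 0.11 to near 0 and removed no member call, and it turned 2 uncalled estimates, Hp by genotype on MCD to 0.0937 and Hpx in the interaction to 0.0061. Orm3 in Pctp-/- livers, 1.01, was not called without the filter on low values and was below the filter of 5 FPKM. The interaction uses all 4 groups, so it has no value with only the compared libraries in the fit. FPKM limit what can be seen of Orm3 and of Lcn2 on chow, and 3 mice a group limit Saa1 and Saa2.

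Without each library in turn, these uncalled log2 fold changes changed sign. By genotype on MCD they ran from -0.12 to 0.065 for Hp, -0.0107 to 0.10 for Hpx, -0.72 to 0.0187 for Saa1, -0.57 to 0.0405 for Saa2 and -0.36 to 0.21 for Saa3. By genotype on chow the range was -0.26 to 0.28 for Lcn2, -0.12 to 0.17 for Orm1, -0.41 to 0.0006 for Saa1, -0.30 to 0.32 for Saa2, -0.0701 to 0.46 for Saa3 and -0.44 to 0.0521 for Saa4. By diet it was -0.13 to 0.35 for Orm3, -0.62 to 0.10 for Saa1 and -0.0574 to 0.54 for Saa2 in WT and -0.34 to 0.29 for Saa2 in Pctp-/- livers. In the interaction it was -0.17 to 0.0031 for Hpx and -0.56 to 0.17 for Saa1. Of the other named genes, the WT calls of Ctf1 (adjusted p to 0.0841 without WT mouse 1 or 3 on chow or 1 or 2 on MCD) and Slc22a17 (to 0.153 without any but WT mouse 3 on chow) were lost, as were the Pctp-/- calls of Tlr2 (to 0.131 without mouse 2 or 3 on chow or 1 or 3 on MCD), Lifr (to 0.109 without any but mouse 1 on chow) and Hgf (0.0559 without mouse 1 on MCD).

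Counts over all genes moved more. The 17 genes called by genotype on chow were 11 at a mean of at least 5 FPKM, 10 with no filter, 4 with only those libraries and 32 with a replicate block, and 8 to 34 without each library. The 102 on MCD were 55 under median-of-ratios scaling and 19 with only those libraries, and 27 to 173 without each library. At a mean of at least 5 FPKM the 7110 diet calls in WT livers were 4448 and the 6276 in Pctp-/- livers 4047. The 12 of the interaction were 3 with a pseudocount of 0.1, 6 under median-of-ratios scaling, 7 without the trend, 59 with the replicate block and 0 to 60 without each library. Replicate numbers name different mice by the labels and were not used as pairs in the main fit. Same-numbered libraries correlated at -0.097 to 0.225 (median 0.077) in their deviations from the group means. Libraries of other numbers correlated at -0.231 to 0.16 (median -0.038). By mean correlation 11 of 12 libraries stood closer to their own number, so an effect shared by number was not excluded. The block changed no member call.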
